A study of Mus musculus with 6 samples.

Results

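The genes described here are the matrix metalloproteinases Mmp2, Mmp3, Mmp9, Mmp13, Mmp14 and Mmp15 and the tissue inhibitors of metalloproteinases Timp1, Timp2, Timp3 and Timp4, 10 genes in all. Their transcripts were measured in hearts taken at 12 months from 3 wild-type and 3 Cenpf knockout mice, each heart on its own Affymetrix mouse gene array. Centromere protein F, the product of Cenpf, binds kinetochores and microtubules. No treatment was given, and the labels call the 3 hearts of a group biological replicates. Strain, sex, the deleted part of Cenpf and any Cre driver were not given in the sources used here. A member was measured by the probe whose annotation gives its symbol and no other gene, and by the brightest such probe had there been several. By this rule 9 of the 10 listed genes had a probe, 1 each, among 19938 genes of the table, namely 5 metalloproteinases and all 4 inhibitors. Mmp15, which encodes a membrane-anchored metalloproteinase, had no such probe.

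Matrix metalloproteinases are zinc-dependent proteases that cut collagens, laminins, fibronectin, proteoglycans and each other's inactive precursors. Most are secreted as precursors, and a few, among them the products of Mmp14 and Mmp15, are anchored in the cell membrane. The inhibitors bind the active site of the mature enzymes, and in heart the balance of the enzymes and their inhibitors is studied as a determinant of matrix turnover and chamber shape. These arrays measure transcripts only, so enzyme activity and the protein stored in the matrix were not measured.

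The labelled tissue and the targeted gene were checked first. All 10 genes of the marker list named ventricular cardiomyocyte, such as Myh6 and Tnnt2, lay above the background level of 6.35. That level is the 95th percentile of olfactory and vomeronasal receptor probes on the log2 scale. Whether the list tells ventricular from atrial cardiomyocytes was not tested. Cenpf itself fell by 2.07 on the log2 scale, to 6.37 ± 0.29 (SD, n = 3) in knockout hearts (limma, adjusted p = 0.0286), in a probe whose position relative to the deletion is unknown here. Of 21789 probes, 6 passed an adjusted p under 0.05, which is 0.0275%, and 14.8% had groups that did not overlap. The median difference over all probes was -0.0082 on the log2 scale. Precision is limited by the number of arrays, 3 a group, and an exact permutation test of any 1 gene cannot give a p below 0.1. Since heart tissue was measured in bulk, fewer cells of a type and less transcript per cell cannot be told apart in any value below.

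Of the 9 measured genes only Mmp3 passed the test, and only Mmp3 had groups that did not overlap. Of all probes 0.0275% were called, 0.0138% being called and higher, and 14.8% had groups apart. The other 8 genes differed by -0.13 to 0.23 on the log2 scale, with adjusted p between 0.697 and 0.977. Of the 9 genes 6 had a higher and 3 a lower mean in knockout hearts, with a median difference of 0.10, where 47.9% of all probes were higher. At an unadjusted p under 0.05, 1 of the 9 passed, Mmp3, beside 9.9% of all probes. That count was 2 of the 9 without wild-type replicate 3, where 3453 of the 21789 probes passed. Without knockout replicate 1 the split was 4 higher and 5 lower, and the median was -0.13. The list was drawn up with earlier results of these arrays known, the Mmp3 difference among them, so its presence here is no independent support.

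**Figure D1:**
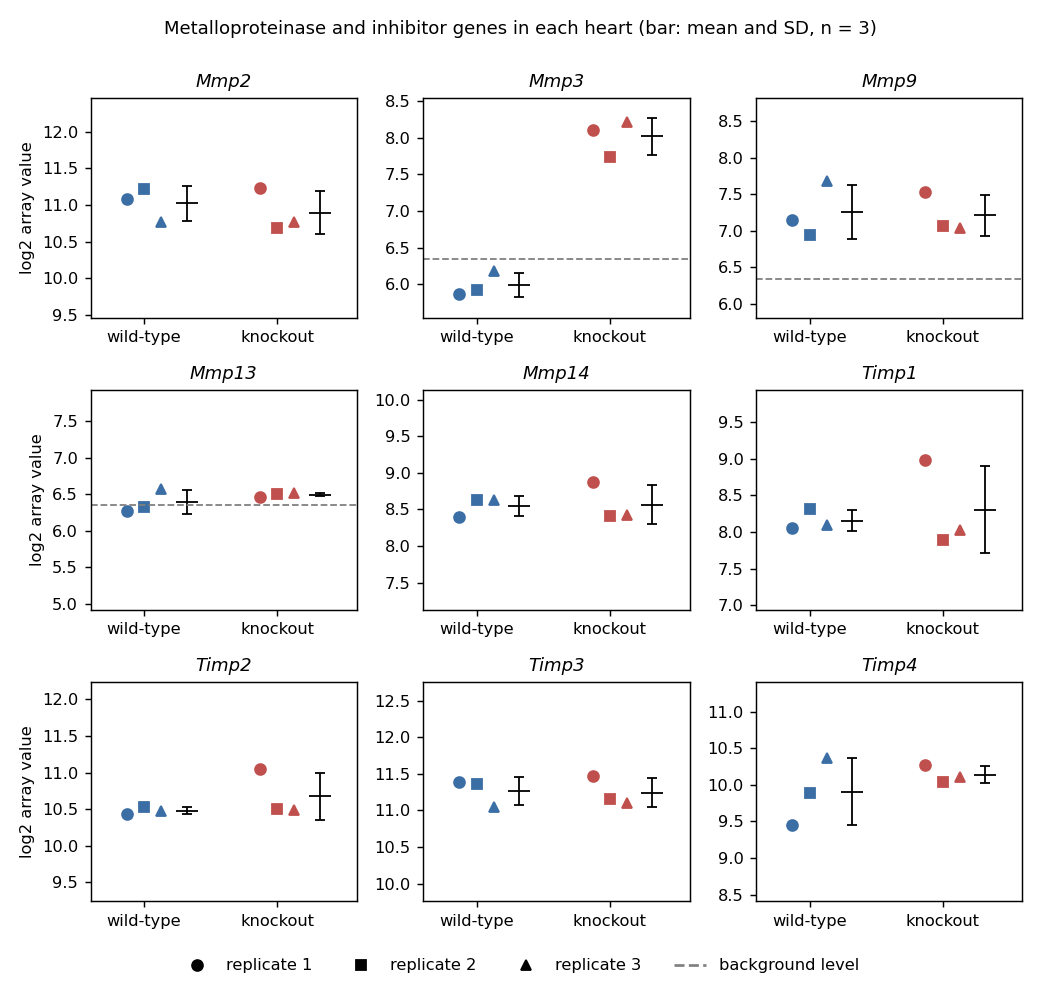
Log2 array values of the 9 measured genes in each heart, wild-type in blue and knockout in red, with the symbol shape giving the replicate number and the bar giving the mean and SD of 3 hearts. Every panel spans 3 log2 units, and the dashed line is the background level of 6.35. Only in the Mmp3 panel do the knockout hearts, from 7.74 to 8.22, lie apart from the wild-type hearts, from 5.86 to 6.18.

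Mmp3 encodes stromelysin, a secreted protease of broad range that cuts proteoglycans, laminin and fibronectin and can activate the precursors of other metalloproteinases. It read 5.86, 5.93 and 6.18 in wild-type replicates 1, 2 and 3 and 8.11, 7.74 and 8.22 in knockout replicates 1, 2 and 3, on the log2 scale. All 3 wild-type hearts lay below the background level and all 3 knockout hearts above it, and 1.56 log2 units separated the highest wild-type from the lowest knockout heart. Mmp3 rose by a fitted 2.03 with a standard error of 0.15 and a 95% confidence interval of 1.69 to 2.37 (limma, adjusted p = 0.00672). That is 4.09-fold, with an interval of 3.22 to 5.19. Since the wild-type level was not above background, the rise is given as at least 1.67 log2 units, or at least 3.19-fold, above that level. Against the 99th percentile of receptor probes, 7.12, which all 3 knockout hearts exceeded, the bound is 0.90. By the size of its p Mmp3 stood in place 2 of the 21789 probes.

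The rise kept its size when any 1 heart was left out, with differences from 1.93 to 2.17. The call was lost when either wild-type replicate 1 or 2 was left out, at adjusted p = 0.0531 and 0.0736, and it was near the threshold without knockout replicate 1 (adjusted p = 0.0498). It was also lost when the test ran over all 35556 probes (adjusted p = 0.144) and with a linear model without moderated variances (adjusted p = 0.414).

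Mmp3 lies on chromosome 9 in a run of metalloproteinase genes that arose by duplication and that includes Mmp13. The run holds, in chromosome order, Mmp13, Mmp12, Mmp1b, Mmp3, Mmp1a, Mmp10, Mmp8, Mmp27, Mmp20 and Mmp7. In the order of the array's probe numbers, the 2 probes before that of Mmp3 belong to Mmp13 and Mmp12 and the 4 after it to Mmp1a, Mmp10, Mmp8 and Mmp27, so the name of the probe and its place in that order go together. The other 9 genes of the run differed by -0.45 to 0.10 on the log2 scale, and 0 passed by limma, the smallest adjusted p being 0.379. Only Mmp12 and Mmp13 had a group mean above the background level. Mmp12, the elastase of macrophages, read 6.50, 6.43 and 6.54 in wild-type hearts and 6.09, 5.84 and 6.21 in knockout hearts. Its groups did not overlap, with the knockout hearts lower and below the background level, and the difference of -0.45 did not pass (adjusted p = 0.379). Mmp20, the tooth enamel protease, had groups that did not overlap below the background level, with a difference of -0.19 (adjusted p = 0.586).

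Beyond the run, the nearest protein-coding genes on either side were looked up, up to 20 before Mmp3, of which the chromosome holds 17, and 20 after it. Of these 35 had a probe, the 9 metalloproteinases included. Of the 35, 0 were called by limma and 7, or 20% of them, had groups that did not overlap, 3 higher and 4 lower, beside 14.8% of all probes. The largest of the 3 higher was Casp1, which encodes an inflammatory caspase, with 0.43 (adjusted p = 0.411). Gucy1a2, a subunit gene of guanylate cyclase, differed by 0.31 and Yap1, a transcriptional coactivator, by 0.25. Among the lower were Aasdhppt with -0.33 and Dync2h1 with -0.14. No flanking gene came near the difference of Mmp3. These neighbours were chosen after the values of Mmp3 were seen.

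**Figure D2:**
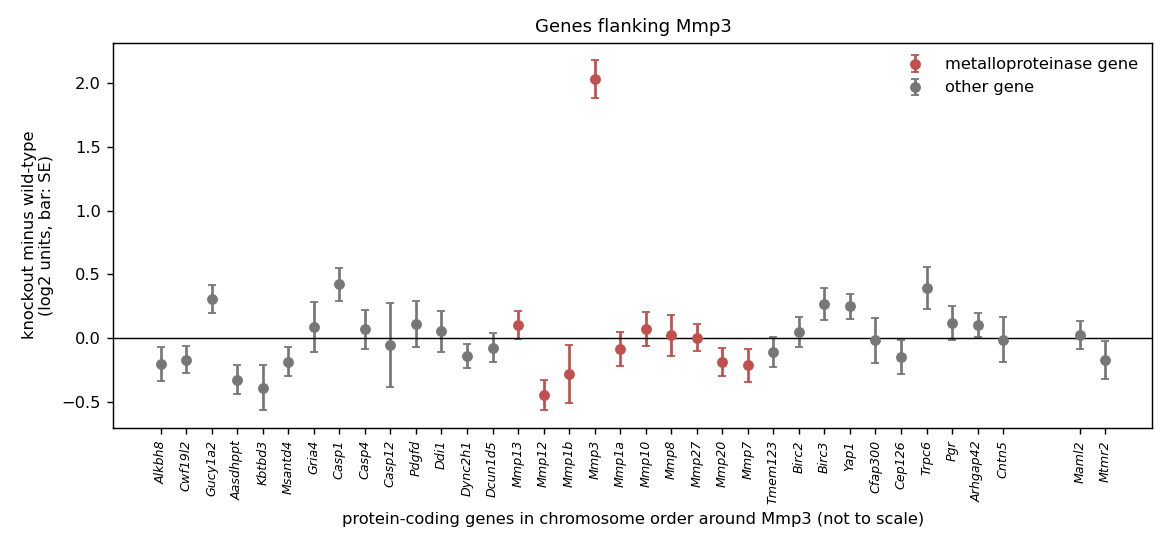
Knockout minus wild-type difference in log2 units (bar: standard error) of the protein-coding genes with a probe in chromosome order around Mmp3, metalloproteinase genes in red and other genes in grey. Mmp3 stands at 2.03, while the other metalloproteinase genes of the run lie between -0.45 and 0.10.

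The promoter sequences of Mmp3 and Mmp13 are shown because the 2 genes share motifs just before their start sites, while Mmp3 differed between the groups and Mmp13 did not pass. They come from RefSeq on GRCm38.p6, plus strand, and each gives the 250 bases before the annotated start, chr9:7445572-7445821 for Mmp3 and chr9:7272264-7272513 for Mmp13. Capitals mark the AP-1 motif TGANTCA, bound by dimers of Fos and Jun proteins, and after it the TATA box TATAAA.
Mmp3: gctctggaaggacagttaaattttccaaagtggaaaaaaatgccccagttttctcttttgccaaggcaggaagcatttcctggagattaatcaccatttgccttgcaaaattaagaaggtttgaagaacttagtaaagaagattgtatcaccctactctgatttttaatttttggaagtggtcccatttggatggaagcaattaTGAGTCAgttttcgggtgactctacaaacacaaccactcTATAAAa
Mmp13: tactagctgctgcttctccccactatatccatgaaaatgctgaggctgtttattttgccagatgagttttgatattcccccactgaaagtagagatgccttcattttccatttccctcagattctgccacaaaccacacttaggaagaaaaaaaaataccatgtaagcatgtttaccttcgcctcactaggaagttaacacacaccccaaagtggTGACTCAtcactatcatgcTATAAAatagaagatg

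The AP-1 motif begins 46 bases before the annotated start of Mmp3, as TGAGTCA, and 35 bases before that of Mmp13, as TGACTCA. The letters GGAAGT, a core bound by ETS factors, begin 77 and 61 bases before the same starts, and TATAAA begins 7 and 16 bases before them. All distances are from the annotated starts, and the true start sites were not measured here. Motifs were searched on both strands in windows of 300 bases, 250 before and 50 after a start, and in the members no 2 of the motifs overlapped. RefSeq windows were at hand for 8 of the 10 members, all but Mmp2 and Mmp9. The AP-1 motif was in 2 of the 8, Mmp3 and Mmp13, and in 7.81% of 32851 windows of all genes. TATAAA was in the same 2 and in 13.6% of all windows. GGAAGT was in 4 of the 8, with Timp1 and Timp4 as the other two, and in 23.8% of all windows. A match is a description of the letters and not a measured binding site.

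Mmp13 encodes an interstitial collagenase, which cuts fibrillar collagen. It read 6.27, 6.33 and 6.58 in wild-type hearts and 6.47, 6.50 and 6.51 in knockout hearts on the log2 scale. Of the wild-type hearts 1 lay above the background level of 6.35, as did all 3 knockout hearts, and the groups overlapped. The fitted difference was 0.10, with a 95% interval of -0.15 to 0.35 (limma, adjusted p = 0.776). The interval bounds the difference in probe signal, and a signal difference of the size of Mmp3 lies far outside it. So near the background level a change of the transcript may not be resolved.

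Mmp2 and Mmp9 encode the gelatinases, which cut denatured collagen and basement membrane collagen. Mmp2 read 11.08, 11.22 and 10.77 in wild-type hearts and 11.23, 10.69 and 10.76 in knockout hearts on the log2 scale. The groups overlapped, with a difference of -0.13 and a 95% interval of -0.53 to 0.27 (limma, adjusted p = 0.827). Without knockout replicate 1 both remaining knockout hearts lay below every wild-type heart, by less than 0.01 in replicate 3, and the difference was -0.30. Mmp9, a gelatinase stored in neutrophils and made by macrophages, read 7.15, 6.95 and 7.67 in wild-type hearts and 7.53, 7.06 and 7.05 in knockout hearts. Its highest value was that of wild-type replicate 3 and the next that of knockout replicate 1, so the spread within each group exceeded the difference of -0.045. The 95% interval of that difference was -0.52 to 0.43 (limma, adjusted p = 0.960), and its sign turned to 0.16 without wild-type replicate 3.

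Mmp14 encodes a metalloproteinase of the cell membrane which, together with the Timp2 protein, activates the precursor of the Mmp2 protein. It read 8.39, 8.63 and 8.62 in wild-type hearts and 8.87, 8.41 and 8.42 in knockout hearts on the log2 scale. Knockout replicate 1 was the highest of the 6 hearts and the other knockout hearts lay within 0.03 of the lowest wild-type heart. The difference was 0.020, with a 95% interval of -0.32 to 0.36 (limma, adjusted p = 0.977), and it was -0.13 without knockout replicate 1.

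Among the inhibitors, Timp1, which is induced in many tissues during inflammation and scarring, showed the widest spread of the 8 genes that did not pass. It read 8.05, 8.32 and 8.09 in wild-type hearts and 8.99, 7.89 and 8.03 in knockout hearts on the log2 scale. Knockout replicate 1 lay 0.67 above the next highest heart, while the other knockout hearts lay below all wild-type hearts. The difference was 0.15 with a 95% interval of -0.45 to 0.75 (limma, adjusted p = 0.872), and -0.19 without knockout replicate 1. Groups that do not overlap are common once that heart is left out, at 31.2% of all probes, and 3 members were among them, Mmp3, Mmp2 and Timp1. With fewer hearts in a group, groups lie apart more readily for any gene. The share without any other heart was not computed, so the rise cannot be laid to knockout replicate 1.

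Timp2, whose product both inhibits metalloproteinases and takes part in activating the Mmp2 protein, read 10.44, 10.53 and 10.47 in wild-type hearts and 11.04, 10.50 and 10.49 in knockout hearts. Here too knockout replicate 1 stood apart, 0.51 above the next highest heart, and the other 5 hearts lay within 0.10 of each other. The difference was 0.20 with a 95% interval of -0.16 to 0.55 (limma, adjusted p = 0.697), and 0.012 without knockout replicate 1. Timp3, whose product is held in the matrix and also inhibits some ADAM proteases, read 11.39, 11.36 and 11.04 in wild-type hearts and 11.47, 11.15 and 11.11 in knockout hearts. Its groups overlapped, with a difference of -0.021 and a 95% interval of -0.34 to 0.30 (limma, adjusted p = 0.975).

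Timp4, an inhibitor gene with prominent expression in heart, read 9.45, 9.89 and 10.36 in wild-type hearts and 10.27, 10.04 and 10.10 in knockout hearts on the log2 scale. The wild-type hearts spanned the knockout values, and their SD of 0.46 was larger than that of 97.3% of all probes. The difference was 0.23 with a 95% interval of -0.24 to 0.71 (limma, adjusted p = 0.729). It was 0.47 without wild-type replicate 3, the highest heart, and 0.0088 without wild-type replicate 1, the lowest. For the 8 genes that did not pass, the intervals together run from 0.695-fold to 1.68-fold, so changes within those limits were not resolved with 3 hearts a group.

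**Figure D3:**
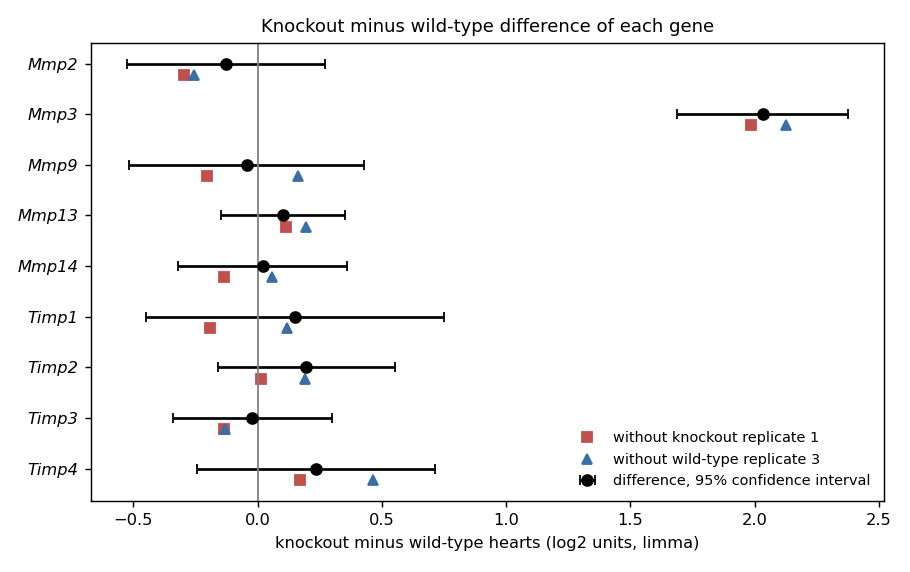
Fitted knockout minus wild-type difference of each gene in log2 units (black points) with its 95% confidence interval, and the same difference without knockout replicate 1 (red squares) and without wild-type replicate 3 (blue triangles). The interval of Mmp3, 1.69 to 2.37, is the only 1 of 9 that does not include 0, and leaving out knockout replicate 1 moves Timp1 from 0.15 to -0.19.

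Knockout replicate 1 was the highest of the 6 hearts for 5 of the 9 genes, Mmp2, Mmp14, Timp1, Timp2 and Timp3. Markers of fibroblasts and macrophages stood high in the same heart. Of 14 fibroblast markers 11 were highest there, and their mean log2 level was 9.93, beside 9.21 and 9.33 in the other knockout hearts and 9.27 to 9.70 in wild-type hearts. Of 6 markers of activated fibroblasts 5 were highest there, with a mean of 8.55 beside 7.69 and 7.72 in the other knockout hearts and 7.64 to 7.86 in wild-type hearts. Of 12 macrophage markers 9 were highest there, with a mean of 9.79 beside 9.07 and 9.22 and, in wild-type hearts, 9.25 to 9.58. Cd14 of that list went the other way, at 7.51 there beside 8.11 to 8.14 in wild-type hearts. Its groups did not overlap, and its difference of -0.79 did not pass (limma, adjusted p = 0.110). Without knockout replicate 1, 1 of the 12 macrophage markers had a higher mean in knockout hearts, with a median difference of -0.37. All markers of these 3 lists lay above the background level. Of the ventricular cardiomyocyte markers 1 of 10 was highest in that heart. The mast cell, atrial cardiomyocyte, lymphocyte, endothelial, valve and neutrophil lists also had their highest mean there, at 0.47, 0.34, 0.15, 0.13, 0.12 and 0.10. Those values are distances from each list's mean over the 6 hearts. The smooth muscle, mesothelial and adipocyte lists did not. The median over all probes was also highest there, at 7.49 beside 7.45 to 7.46. What share of all probes was highest in that heart was not computed. The part of any of these cell types in the inhibitor values of knockout replicate 1 was not tested. Mmp3 was 8.11 in knockout replicate 1 and 7.74 and 8.22 in the other knockout hearts, and its difference without knockout replicate 1 was 1.99.

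**Figure D4:**
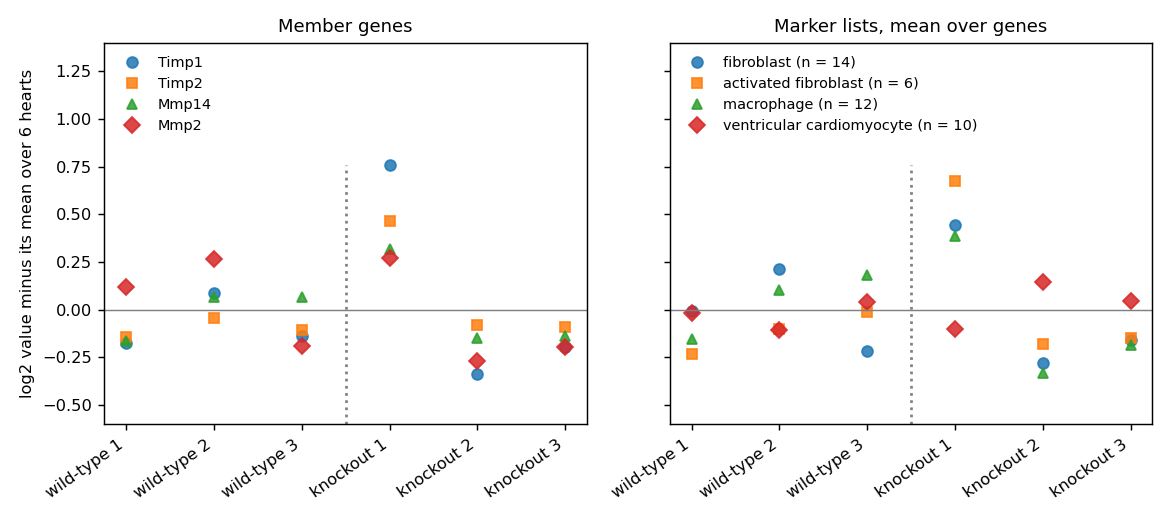
Log2 values of 4 member genes (left) and mean values of 4 marker lists (right) in each heart, each given as the distance from its own mean over the 6 hearts. The genes drawn are 4 of the 5 members that are highest in knockout replicate 1, so their shared peak follows from the choice. The members not highest there, Mmp3, Mmp9, Mmp13 and Timp4, are not drawn. Of 13 marker lists 4 are drawn, and several not drawn also peak in knockout replicate 1, such as the mast cell list at 0.47. Of the lists drawn, the fibroblast, activated fibroblast and macrophage lists peak in that heart, at 0.45, 0.68 and 0.39. The ventricular cardiomyocyte list stands at -0.10 there.

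The genes whose values across the 6 hearts were most like those of Timp1, by Euclidean distance between log2 values centred on each gene's mean, were Vcan, Cbr2, Pdpn and Islr among 13309 genes. Their distances were 0.13, 0.13, 0.20 and 0.20, where a flat gene would lie at 0.89. Vcan encodes the matrix proteoglycan versican and Pdpn the membrane protein podoplanin. In each of these genes knockout replicate 1 was the highest heart, for Vcan at 10.07 beside 8.95 and 9.26 in the other knockout hearts. For Mmp3 the nearest genes were Pagr1a, Gabra3, Slc40a1 and Ucp3, at distances of 0.69, 0.80, 0.93 and 1.03, where a flat gene would lie at 2.52. Gabra3 encodes a subunit of the GABA receptor, Slc40a1 the iron exporter ferroportin and Ucp3 a mitochondrial uncoupling protein. Pagr1a, whose product binds the PAXIP1 protein, differed by 1.53 and passed (limma, adjusted p = 0.0124). Slc40a1 read 6.89, 7.06 and 7.62 in wild-type hearts and 8.95, 8.24 and 8.53 in knockout hearts, a difference of 1.38 that did not pass (adjusted p = 0.179). These likenesses are descriptions over 6 hearts and were chosen on the same values.

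The other 17 metalloproteinase genes were all measured, and 8 of them had a group mean above the background level. By limma 0 passed, while 2 had an unadjusted p under 0.05, both lower, beside 9.9% of all probes in either direction. Of the 17 genes 6 had a higher and 11 a lower mean in knockout hearts, with a median difference of -0.086 beside -0.0082 for all probes. Without knockout replicate 1 only 3 were higher. Groups did not overlap in 1 higher and 3 lower genes, where 7.33% of all probes were apart and higher and 7.47% apart and lower. Of the 3 lower, Mmp20 and Mmp21 had both group means below the background level. Mmp21 was also 1 of the 2 genes with an unadjusted p under 0.05. Besides Mmp12, the genes above background with the smallest p were Mmp16 and Mmp17, which encode membrane-anchored enzymes. Mmp16 differed by -0.36 (adjusted p = 0.533) and Mmp17, with groups that did not overlap, by 0.18 (adjusted p = 0.563).

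Genes that activate or restrain the metalloproteinases, such as the plasminogen activators, furin and Reck, held 19 measured members of 21 listed, with 18 above background. None passed by limma and 1 had an unadjusted p under 0.05, beside 9.9% of all probes. Of the 19 genes 13 were higher and 6 lower, with a median difference of 0.11. Without knockout replicate 1, the highest heart for 10 of the 19, 10 were higher and the median was 0.044. Lrp1, an endocytic receptor that clears metalloproteinases and their complexes with inhibitors, read 10.04, 10.19 and 10.43 in wild-type hearts and 10.86, 10.50 and 10.51 in knockout hearts. The groups of Lrp1 did not overlap, and its difference of 0.40 did not pass (adjusted p = 0.457). Plau, the urokinase gene, differed by 0.40 (adjusted p = 0.579), or 0.12 without knockout replicate 1, where it read 8.53 beside 7.63 and 7.70. Lcn2, whose product binds and stabilises the Mmp9 protein, differed by -0.43 (adjusted p = 0.550), or -0.71 without knockout replicate 1. Knockout replicate 1 was its highest heart at 9.09, while the other knockout hearts, at 8.33 and 8.17, lay below every wild-type heart.

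The related ADAM and ADAMTS proteases held 18 measured genes of 19 listed, of which 13 were higher and 5 lower with a median difference of 0.070, or 0.038 without knockout replicate 1. By limma 0 passed and 2 had an unadjusted p under 0.05, both higher, beside 9.9% of all probes in either direction. Groups did not overlap in 6 higher and 1 lower gene, where 7.33% of all probes were apart and higher and 7.47% apart and lower. Adam19, a membrane-anchored protease with a role in heart development, read 8.55, 8.50 and 8.67 in wild-type hearts and 8.95, 9.22 and 9.22 in knockout hearts, a difference of 0.55 (adjusted p = 0.280). Adamts1, which cuts versican and other proteoglycans, differed by 0.34 (adjusted p = 0.433) and Adam10, a sheddase of the cell surface, by 0.22 (adjusted p = 0.506). All 3 had knockout hearts above every wild-type heart.

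Cytokines, growth factors and transcription factors known to induce metalloproteinase genes held 31 measured members of 33 listed, with 28 above background. Of the 31 genes 22 were higher and 9 lower, with a median difference of 0.10, and 21 were higher without knockout replicate 1. By limma 0 passed, and 6 had an unadjusted p under 0.05, all higher, beside 9.9% of all probes in either direction. Groups did not overlap in 8 genes, all higher, where 7.33% of all probes were. Egr1, an immediate early transcription factor, read 8.57, 8.76 and 8.64 in wild-type hearts and 9.28, 9.51 and 9.49 in knockout hearts, a difference of 0.77 (adjusted p = 0.110). The AP-1 subunit genes Jun and Fosl2 differed by 0.63 (adjusted p = 0.369) and 0.44 (adjusted p = 0.379). Of all 7 Fos and Jun family genes in the list, looked at together after their values were seen, 6 were higher (47.9% of all probes), 3 had groups apart and higher (7.33% of all probes) and 0 passed, with differences from -0.032 to 0.63.

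The substrates, collagens, laminins, fibronectin and other matrix genes, held 34 measured members of 36 listed, all above background. Of the 34 genes 19 were higher and 15 lower with a median difference of 0.043, which was -0.051 without knockout replicate 1. By limma 0 passed, and 5 had an unadjusted p under 0.05, 4 of them higher, beside 9.9% of all probes in either direction. Groups did not overlap in 7 of the 34 genes, all higher, beside 7.33% of all probes apart and higher. Lama5, a laminin chain gene of basement membranes, differed by 0.55 with overlapping groups (adjusted p = 0.472). Tnxb, which encodes tenascin X, differed by 0.36 and Thbs2, which encodes a thrombospondin that binds metalloproteinases for uptake, by 0.29 (adjusted p = 0.459 for each), and both had groups that did not overlap. Knockout replicate 1 was the highest heart for 17 of the 34 substrate genes.

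**Figure D5:**
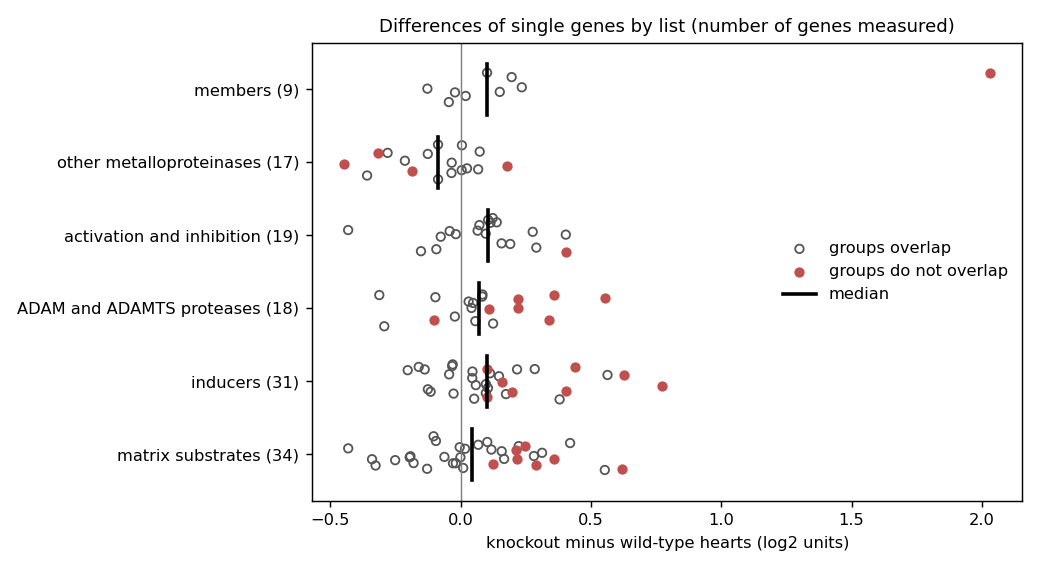
Knockout minus wild-type difference of single genes in log2 units, for the 9 measured members and the 5 lists of related genes, with filled red points for genes whose groups did not overlap, open points for the others and a bar at the median. Mmp3 at 2.03 is the only point above 1, and the medians lie between -0.086 and 0.11.

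Markers of further cell types that a heart sample can hold were read for comparison. Over 13 marker lists, 0 of the 109 measured genes passed by limma and 15 had an unadjusted p under 0.05, beside 9.9% of all probes, and the list medians ran from -0.27 for adipocyte markers to 0.25 for activated fibroblast markers, the latter -0.0085 without knockout replicate 1. Neutrophil, mast cell and lymphocyte markers were above background for 5 of 10, 4 of 7 and 4 of 8 genes, and Ly6g, Cma1 and Ms4a1 were not. Their mean log2 levels ran from 6.03 to 6.15 in wild-type and 5.94 to 6.16 in knockout hearts for neutrophils, and up to 6.11 and 6.62 for mast cells. For lymphocytes they ran from 6.37 to 6.52 and 6.38 to 6.61. In all 3 lists the highest of the 6 hearts was knockout replicate 1. For neutrophils it read 6.1565 there beside 6.1535 in wild-type replicate 3. Mmp3 was highest in knockout replicate 3, and the part of these cells in its values was not tested.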

How the data were processed

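The authors deposited log2 values. Per the submitters' processing notes they used RMA (background correction, normalization between arrays and summary of probes) and Partek 6.6. Settings and build: not given in the sources used here. Array medians lay between 6.92 and 6.97, and the values were used as deposited. Probes were named from the platform annotation, which gives exactly 1 symbol for 21789 of 35556 probes, several for 1621 and none for 12146. Matched through Entrez IDs to RefSeq's genes of GRCm38.p6, 0 symbols needed updating.

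Knockout and wild-type hearts were compared over all 21789 probes with limma 3.58.1 in R 4.3.3 (lmFit and eBayes, two-sided, Benjamini-Hochberg adjustment over all of them), with a call at an adjusted p under 0.05. The test was checked on simulated data. The background level was the 95th percentile over 1210 receptor probes, with the 90th and 99th as alternatives. Lists of related genes and markers were described by counts and medians, with no list test. The genes named were the members, the run of genes around Mmp3, the nearest genes by Euclidean distance for the member of largest difference and the member of widest range among the rest, and the 3 genes of smallest p above background in each list of related genes. The members and lists were chosen with earlier results of these data known. Other normalizations, filters, variance models, the replicate block and each heart left out were tried as alternatives. Figures were drawn with matplotlib 3.10.9. Protein sequences were not analysed here.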

Additional observations from a re-analysis of the deposited data

How the results depend on the processing

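Over 17 alternatives the difference of Mmp3 ran from 1.93 to 2.17 with adjusted p from 0.00143 to 0.414, and it was called in 13 of them. Among the 13 are the filters on background, which Mmp3 passed only through its knockout hearts. The mean of a gene's probes is also among them, and it leaves the values of a gene with 1 probe unchanged. Those settings are no separate support for the call. It kept its size of 2.03 but lost the call, so that 0 members were called (1 at an unadjusted p under 0.05), with all probes of the table tested and with the plain linear model. Leaving out 1 heart gave 1.93 to 2.17 and 0 to 1 members called. Of 6 probes called, the count was 1 with all probes tested, 33 with array weights, 22 with the trend and robust prior and 0 with the plain linear model (1791 at an unadjusted p under 0.05), and 1 to 293 with 1 heart left out, the last without wild-type replicate 3. Deviations from the group means correlated at -0.11, -0.16 and -0.003 for same-numbered hearts and from -0.02 to 0.139 for the other pairs. These values give no sign of pairing by replicate number. They cannot exclude it, since deviations within a group of 3 hearts sum to 0 and so depend on each other. With the replicate block 11 probes were called and Mmp3 stayed called (adjusted p = 0.0043).

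Of 153 differences recomputed over the 9 genes, 135 kept direction and side of the threshold, 14 changed direction and 4, all of Mmp3, lost the call. The 14 belong to 4 genes that did not pass. With array weights Mmp14 was -0.034 and Timp1 -0.029. Timp3 was 0.00039 with array medians subtracted and 0.0054 with quantile normalization. With 1 heart left out Mmp14 ran from -0.13 to 0.10, Mmp9 from -0.20 to 0.16, Timp1 from -0.19 to 0.36 and Timp3 from -0.13 to 0.047. The cause of these shifts was not tested. A count chosen after seeing the data, of other metalloproteinase genes with a higher mean, went from 6 to 3 without knockout replicate 1. By the mean over all 6 hearts, 9, 9 and 7 of the 9 genes lay above the 90th, 95th and 99th percentile of receptor probes, Mmp3 and Mmp13 being below the last. Mmp3 counted as above the 95th percentile only through its knockout hearts, its wild-type mean being 5.99. An array has no depth as reads have, and signal over background limits what is said of Mmp13 and of Mmp3 in wild-type hearts.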
